A study of Penicillium oxalicum with 6 samples.

Results

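The genes described here had a high read level per gene length in Penicillium oxalicum mycelium. Their level differed at least 2-fold between the 2 labelled groups of libraries. A gene was kept if its mean FPKM (a read level scaled to gene length and library size) was at least 1000 in one group and at least 2 times the mean of the other group. Of 9834 genes, 213 reached that level in a group and 83 of these met the ratio. The rule then removed 125 ID numbers, which took out 17 of the 83, 10 higher and 7 lower in the Avicel-labelled libraries, and left 66 genes. Of the 66 members, 28 were higher and 38 were lower in the Avicel-labelled libraries. Level and direction were thus used to choose the members. Their differences between the groups are given as a description, and nothing is read from the calls that a fit across all genes makes for them.

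The 6 libraries came from mycelium grown in shaken liquid medium. By the sample labels, all were of strain MuKu70 and were grown for 4 hours. The same labels give 1% Avicel, a microcrystalline cellulose, for 3 libraries and 1% wheat bran for the other 3. The series title names another strain, a POX07277 deletion mutant, and another time, and for the wheat bran group also another medium. The deposited tables carry the number of that gene and the title's time in their names, and neither a medium nor the labelled time. POX07277 had 427, 375 and 331 expected counts in the Avicel group and 0 in each library of the wheat bran group, which the labels do not account for. Carbon source, strain and any difference in handling cannot be told apart here, and "Avicel" and "wheat bran" are used below as labels only. The labels do not say whether replicates F, S and T were separate cultures, and the spread that p-values are measured against may thus be technical.

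In filamentous fungi, the most abundant messenger RNAs commonly encode ribosomal proteins, translation factors, histones, enzymes of central carbon metabolism, small secreted or stress-related proteins and, on plant material, secreted hydrolases. Avicel is nearly pure cellulose, while wheat bran also supplies xylan, starch and protein. The files give the genes as POX numbers without names, and among the 9964 RefSeq entries held for this species there was no match for any of the 66 members. No product, role or sequence is therefore given for a member, and members are grouped by level, direction and behaviour.

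Libraries held 13176152 to 14598919 expected counts. Over log2(CPM + 1) of tested genes (CPM, counts scaled to library size), libraries of 1 group correlated at r of 0.983 or more, and libraries of different groups at 0.909 or less. In 13 members the Avicel-labelled replicate F lay at least 1.5-fold outside the range of S and T. The summed levels, the spread within the group and the folds of these 13 members are given with and without it. Values per library below are in the order of the replicate letters F, S and T.

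The 66 members together took 12.6%, 11.97% and 11.99% of all counts in the Avicel group, against 13.2%, 13.6% and 13.3% in the wheat bran group. Their make-up differed. The 28 higher members took 10.2% ± 0.499 of counts with the Avicel label and 3.52% ± 0.269 with the wheat bran label (SD, n = 3 each). For the 38 lower members the shares were 2.02% ± 0.149 and 9.86% ± 0.115 (SD, n = 3 each). Per length, the summed FPKM of the higher members was 101755 ± 5042 in the Avicel group and 37881 ± 1418 in the wheat bran group (SD, n = 3 each), 2.69-fold apart. The lower members summed to 29156 ± 911 FPKM and 164788 ± 1594 FPKM (SD, n = 3 each), 5.65-fold apart. Without replicate F labelled Avicel these folds were 2.61 and 5.57.

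**Figure D1:**
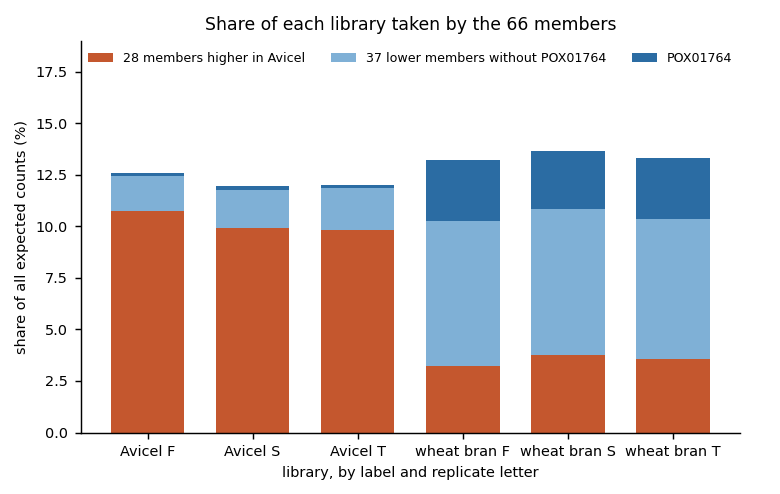
Share of all expected counts (percent, vertical axis) taken by the members in each of the 6 libraries, stacked as the 28 higher members, 37 lower members without POX01764, and POX01764. The 3 Avicel bars reach 11.97% to 12.6% and the 3 wheat bran bars 13.2% to 13.6%, with the higher members at 9.83% to 10.7% and 3.23% to 3.77%.

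All 66 members passed the filter on low counts, and their lowest count in any library was 101. By the fit across all 8636 tested genes (edgeR quasi-likelihood test, adjusted p under 0.05), 55% of genes were called, 27.5% higher and 27.5% lower, and all 28 and all 38 members were called in their direction. The groups did not overlap for any member, while 31.9% of tested genes lay wholly higher and 31.9% wholly lower. Since the rule chose the members on this contrast, nothing is read from these counts. The median fold was 2.43 among higher members and 3.87 among lower ones. At 4-fold or more there were 6 higher and 19 lower members, and at 10-fold or more 1 and 6. These medians and counts leave out the 17 genes removed by ID number, 10 higher and 7 lower. Among the removed genes, POX00063 was 17.8-fold higher, and POX06147, POX08897 and POX04786 were 6.86-fold to 6.99-fold higher. The widest removed gene on the lower side was POX01175, at 4.24-fold. The split by fold thus describes the members only. The median fitted log2 fold change was 1.28 among higher members and -1.95 among lower ones, against 0.0086 over all tested genes.

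**Figure D2:**
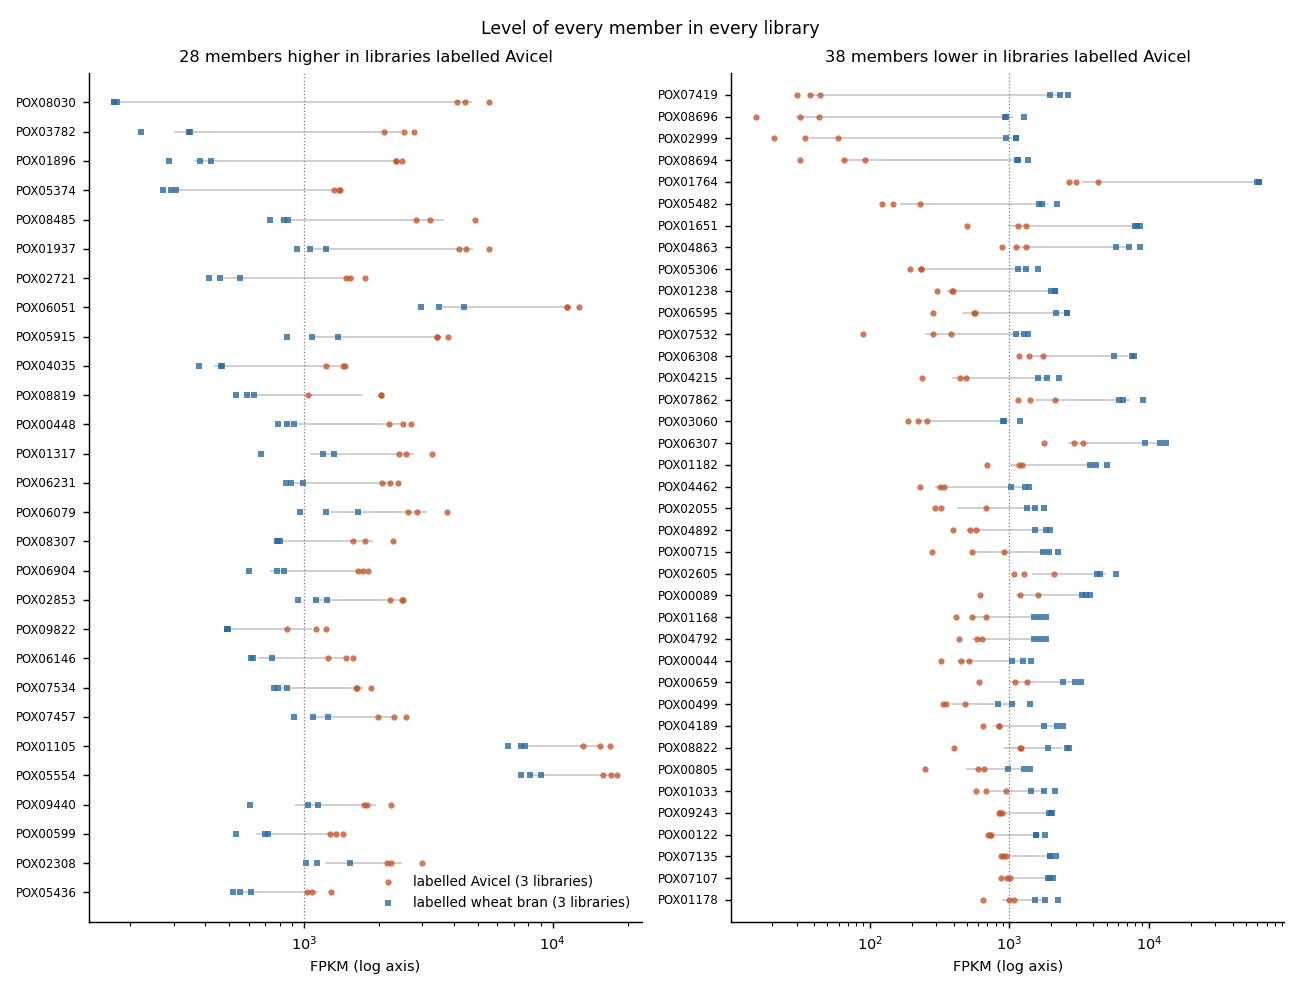
FPKM (log axis) of each of the 66 members, one row per gene ordered by the fold between group means. Each mark is 1 library, circles for the Avicel label and squares for the wheat bran label, the grey line joins the group means, and the dotted line is 1000 FPKM. Circles and squares overlap in no row. The folds run to 27.0 among the higher members and to 61.6 among the lower ones.

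Of the 213 genes at this level, 130 differed less than 2-fold. High ranks of members in the group where they were higher follow from the level set by the rule. Their places among the most abundant genes are therefore a description. In the Avicel group, 3 of the top 10 genes by mean FPKM were higher members, 3 had been removed by ID number and 4 differed less than 2-fold. In the wheat bran group the top 10 held 4 lower members and 2 higher ones, 1 removed gene and 3 that differed less than 2-fold. Of the top 100, 26 in the Avicel group were higher members and 5 lower ones, and in the wheat bran group 3 were higher members and 28 lower ones. Of the 28 higher members, 10 reached 1000 FPKM in the wheat bran group too, and 9 of the 38 lower members did so in the Avicel group.

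**Figure D3:**
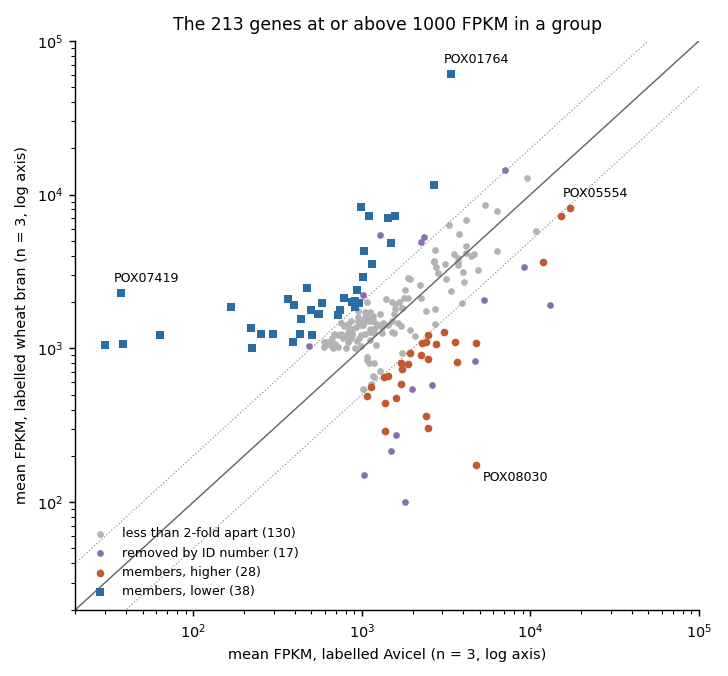
Mean FPKM in the Avicel group (horizontal) against the wheat bran group (vertical) for the 213 genes at or above 1000 FPKM in a group, both on log axes, n = 3 libraries per mean. The solid line marks equal levels and the dotted lines a 2-fold difference. The 130 grey genes lie between the dotted lines, and 6 lower members and 1 higher member lie 10-fold or more from equality.

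Among the higher members, POX05554 and POX01105 were the 2 most abundant genes of the Avicel group. POX05554 had 15997, 17187 and 18157 FPKM with the Avicel label, against 8100.1, 7471 and 8998 FPKM with the wheat bran label. POX01105 had 17038, 15558 and 13214 FPKM, against 7495, 7769.6 and 6641 FPKM. The lowest Avicel library was well above the highest wheat bran library in both, yet the means differed by only 2.09-fold in each. They ranked 1 and 2 in the Avicel group and 7 and 9 in the wheat bran group, so these genes were among the 10 most abundant under both labels. Together they made up 31.8% of the summed FPKM of the higher members in the Avicel group and 26.4% of the summed difference.

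POX06051, the third of the higher members by level, had 12735, 11379 and 11447 FPKM in the Avicel group, against 2946.5, 4393 and 3507 FPKM in the wheat bran group. Its mean was 3.28-fold higher, and it ranked 4 in the Avicel group and 33 in the wheat bran group. The spread between libraries was larger under the wheat bran label, with a coefficient of variation (CV, SD over mean) of 20.2%, against 6.45% under the Avicel label. No higher member lay between 5000 and 10000 FPKM in the Avicel group. Below these 3 genes came 13 members at 2000 to 5000 FPKM and 12 at 1000 to 2000 FPKM.

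POX08030 differed most among the higher members. It had 5555, 4145 and 4456 FPKM in the Avicel group, against 178, 173 and 173 FPKM in the wheat bran group, 27.0-fold apart (4719 ± 741 and 175 ± 2.58 FPKM, SD, n = 3 each). It ranked 15 among all genes with the Avicel label and 929 with the wheat bran label. The 3 wheat bran libraries were nearly equal, with a CV of 1.48%, while the CV of the Avicel libraries was 15.7%.

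POX03782 had 2768, 2535 and 2108 FPKM in the Avicel group, against 345, 222 and 348 FPKM in the wheat bran group, 8.10-fold apart. POX01896 had 2490.2, 2357 and 2346 FPKM, against 424, 384 and 286 FPKM, 6.57-fold apart. Both were steadier in the Avicel group, with CVs of 13.6% and 3.35%, against 23.5% and 19.5% in the wheat bran group. Between these and POX08030 there was no higher member.

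POX01937 had 5541, 4480.2 and 4207 FPKM in the Avicel group, against 939.5, 1231 and 1057 FPKM in the wheat bran group, 4.41-fold apart. POX08485 had 4867, 3226 and 2829 FPKM, against 832, 866 and 733 FPKM, 4.49-fold apart. Replicate F was the highest Avicel library in both, and in POX08485 it lay at least 1.5-fold above the others. POX05915 had 3812, 3438 and 3439 FPKM in the Avicel group, against 859, 1376 and 1077 FPKM in the wheat bran group, 3.23-fold apart. POX06079 had 3779.5, 2864 and 2622 FPKM, against 965, 1651 and 1229.8 FPKM, 2.41-fold apart. In POX01937, POX05915, POX06079 and POX06051, replicate S was the highest wheat bran library and replicate F the lowest. The same order was seen in POX01317, POX02721, POX02853 and POX05436. This order was picked out after the values were seen, its share among other genes was not counted, and nothing is read from it.

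The other 18 higher members had means of 1071 to 2756 FPKM in the Avicel group and 290.2 to 1226 FPKM in the wheat bran group. POX02721, POX04035 and POX05374 lay 3.14-fold to 4.72-fold apart. POX05374 was the steadiest higher member under the Avicel label, at 1371 ± 37.2 FPKM, against 290.2 ± 17.6 FPKM under the wheat bran label (SD, n = 3 each). The remaining 15 lay 2.01-fold to 2.93-fold apart: POX00448, POX00599, POX01317, POX02308, POX02853, POX05436, POX06146, POX06231, POX06904, POX07457, POX07534, POX08307, POX08819, POX09440 and POX09822. Of these, POX08819 reached 2.93-fold although replicate F labelled Avicel, at 1042 FPKM, lay far below replicates S and T at 2046 and 2053 FPKM. The narrowest gap between the groups among higher members was that of POX02308, whose lowest Avicel library was 1.42 times its highest wheat bran library.

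Among the lower members, 1 gene held a large part of the whole. POX01764 had 3007, 4358 and 2706 FPKM in the Avicel group, against 61912, 59202 and 61834 FPKM in the wheat bran group, 18.2-fold apart (3357 ± 880 and 60983 ± 1542 FPKM, SD, n = 3 each). It was the most abundant gene of the wheat bran group, and at rank 33 it was still among the 50 most abundant of the Avicel group. It took 0.158% ± 0.0415 of all counts with the Avicel label and 2.89% ± 0.0739 with the wheat bran label (SD, n = 3 each). It made up 37.01% of the summed FPKM of the 38 lower members in the wheat bran group and 42.5% of their summed difference. Without it, the other 37 lower members summed to 25799 ± 1446 FPKM in the Avicel group and 103805 ± 2957 FPKM in the wheat bran group (SD, n = 3 each), 4.02-fold apart.

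The counts of POX01764 were not whole numbers, as happens when reads that fit more than 1 gene are divided among them. Of the 9834 genes, 109 had such a count, and 4 members were among them. These 4 formed pairs. The counts of POX01764 and POX01651 were not whole in any of the 6 libraries, yet their sum was whole in each (within 0.011 counts). The same held for POX04863 and POX00499, whose counts were not whole in 5 libraries. Among the 109 genes, 15 such pairs were found, and no member was paired with a gene outside the 66.

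A division of reads within a pair does not touch the sum of the pair. POX01764 and POX01651 together stood at 2046 ± 604 CPM in the Avicel group and 32648 ± 1097 CPM in the wheat bran group (SD, n = 3 each), 16.0-fold apart. POX01651 took 27.1%, 22.6% and 15.2% of the pair's counts with the Avicel label, against 11.97%, 11.5% and 11.4% with the wheat bran label. Its share was thus nearly constant in the wheat bran group and higher in every Avicel library. On its own POX01651 had 1158, 1317 and 501 FPKM in the Avicel group, against 8705, 7972 and 8189 FPKM in the wheat bran group, 8.36-fold apart. Replicate T labelled Avicel was at least 1.5-fold below F and S.

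POX04863 and POX00499 together stood at 315 ± 54.8 CPM in the Avicel group and 1659 ± 369 CPM in the wheat bran group (SD, n = 3 each), 5.27-fold apart. POX04863 had 1112, 891 and 1317 FPKM, against 5833, 7209 and 8639.6 FPKM, 6.53-fold apart. POX00499 had 338, 351 and 479 FPKM, against 833, 1054 and 1411 FPKM, 2.82-fold apart. Under both labels, replicate T was the highest library of both genes. How reads were divided within a pair bears on each gene's own value, and its part in the 2 folds was not tested.

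POX06307, the second of the lower members by level, and POX06308 had consecutive ID numbers. POX06307 had 3379, 1766 and 2939 FPKM in the Avicel group, against 12045, 13266 and 9461 FPKM in the wheat bran group, 4.30-fold apart. POX06308 had 1743, 1179 and 1390.5 FPKM, against 7554, 7891 and 5637 FPKM, 4.89-fold apart. In both genes replicate F was the highest and S the lowest library under the Avicel label, and S the highest and T the lowest under the wheat bran label. They were the only 2 members with consecutive ID numbers, which depends on the removal of ID numbers by the rule. The removed genes POX06147 and POX08484, next to the members POX06146 and POX08485, had met its level and ratio. So had the removed run from POX01170 to POX01176.

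POX07862 had 2127, 1156 and 1421 FPKM in the Avicel group, against 6597, 9085 and 6118 FPKM in the wheat bran group, 4.63-fold apart. POX02605 had 2113, 1081.5 and 1274 FPKM, against 4272, 5786 and 4464 FPKM, 3.25-fold apart. Both had their highest Avicel level in replicate F. In POX01182 that replicate was the lowest instead: it had 694, 1169.6 and 1229 FPKM in the Avicel group, against 5035, 3767 and 4165 FPKM in the wheat bran group, 4.19-fold apart.

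The widest ratios belonged to genes with low levels in the Avicel group. POX07419 had 37.8, 43.9 and 30.3 FPKM with the Avicel label, against 2304, 1965 and 2621 FPKM with the wheat bran label, 61.6-fold apart. POX08696 had 31.7, 43.2 and 15.5 FPKM, against 1278, 931 and 954 FPKM, 35.0-fold apart. POX02999 had 34.6, 59.8 and 20.7 FPKM, against 1114, 1123 and 947 FPKM, 27.7-fold apart. These 3 genes ranked 3546, 4131 and 3476 of 9834 in the Avicel group and 52, 168 and 167 in the wheat bran group.

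POX08694 and POX05482 were the other lower members beyond 10-fold. POX08694 averaged 63.4 ± 30.6 FPKM with the Avicel label and 1221 ± 127 FPKM with the wheat bran label (SD, n = 3 each). POX05482 averaged 167 ± 56.8 and 1855 ± 309 FPKM (SD, n = 3 each). In all 6 of the members beyond 10-fold, POX01764 included, replicate S was the highest of the Avicel libraries, and in 5 of them replicate T was the lowest. Among the other 32 lower members, S was the highest in 5 and T the lowest in 5. Of the other 167 genes called at least 10-fold lower, S was the highest in 61.1% and T the lowest in 55.7%, against 24.0% and 27.2% of all tested genes. This order was looked at after the values were seen.

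The other 24 lower members had means of 221 to 1144 FPKM in the Avicel group and 1002 to 3558 FPKM in the wheat bran group. POX01238, POX05306 and POX06595 lay 5.22-fold to 6.14-fold apart. A further 10 lay 3.02-fold to 4.94-fold apart: POX00089, POX00715, POX01168, POX02055, POX03060, POX04215, POX04462, POX04792, POX04892 and POX07532. Those at 2.03-fold to 2.89-fold were POX00044, POX00122, POX00659, POX00805, POX01033, POX01178, POX04189, POX07107, POX07135, POX08822 and POX09243. The narrowest gap among lower members was that of POX01178, whose lowest wheat bran library was 1.41 times its highest Avicel library.

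Within the last band, 4 genes were steady under both labels. POX09243 averaged 868 ± 23.4 FPKM with the Avicel label and 1993 ± 50.04 FPKM with the wheat bran label (SD, n = 3 each). POX00122 averaged 726 ± 16.3 and 1643 ± 134 FPKM, and POX07135 averaged 905 ± 36.97 and 2022 ± 112 FPKM (SD, n = 3 each). POX07107 averaged 956 ± 74.4 and 1964 ± 77.7 FPKM (SD, n = 3 each). Their CVs were 2.25% to 7.78% in the Avicel group and 2.51% to 8.13% in the wheat bran group.

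The spread between libraries of 1 group was not used by the rule beyond the group mean. Among the 38 lower members the median CV was 25.9% in the Avicel group and 14.9% in the wheat bran group, and it was larger in the Avicel group in 31 of 38. Among the 28 higher members it was 11.7% and 12.3%, and larger in the Avicel group in 11 of 28. The 130 genes that reached 1000 FPKM in a group but differed less than 2-fold had medians of 4.93% and 7.82%. Being less than 2-fold apart, these genes could not fall as low in the Avicel group as many lower members. The lower members ran from 30.1 to 3357 FPKM there, so the 2 sets were not matched in level. Of the other 1354 genes called at 2-fold or more, 58.6% had the larger CV in the Avicel group. Over replicates S and T labelled Avicel alone, the median CV of the lower members was 12.8%, and the CV was larger than in the wheat bran group in 17 of 38. For the higher members the median over S and T was 5.11%, with a larger CV in 7 of 28, and for the 130 genes it was 3.18%. A CV over 2 libraries is not directly comparable with a CV over 3. Over pairs of wheat bran libraries the medians were 10.004% to 12.8% for lower members and 9.499% to 9.86% for higher ones. The values without F were added after the data were seen. These shares are descriptions across genes, which are not independent replicates.

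Much of the spread of the lower members in the Avicel group lay between replicate F and the rest. The median fold between 2 libraries over the lower members, on the log2(FPKM + 1) scale, was 1.37 for F and S, 1.54 for F and T, and 1.198 for S and T. In the wheat bran group the corresponding values were 1.199, 1.15 and 1.19. Replicate F labelled Avicel lay at least 1.5-fold outside the range of S and T in 11 of 38 lower members (28.9%), below it in 8 and above it in 3. It did so in 2 of the 28 higher members (7.14%), in 7.69% of the 130 genes that differed less than 2-fold, and in 14.3% of the other genes called at 2-fold or more. The 130 genes were not matched to the lower members in level. Replicates S and T labelled Avicel did so in 6.35% and 13.5% of these other called genes, and in 10.5% and 13.2% of the lower members. No wheat bran library lay so far from the other 2 in any lower member. Among the higher members, wheat bran replicate S did so in 2 and F in 1.

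The 8 lower members with F below were POX00089, POX00659, POX00805, POX01178, POX01182, POX04215, POX07532 and POX08822. POX08822 had 400, 1197 and 1218 FPKM with the Avicel label, against 1885, 2599 and 2671 FPKM with the wheat bran label. POX07532 had 89.4, 284 and 385 FPKM, against 1113, 1362 and 1268 FPKM. In these genes replicate F was thus farther from the wheat bran group than S and T were. Their group means lay 2.03-fold to 4.94-fold apart with F and 1.78-fold to 4.08-fold without it. Without F, POX00805, POX01178 and POX08822 were under 2-fold, at 1.95-fold, 1.78-fold and 1.97-fold. POX00715, POX02055 and POX02605 went the other way, with F above. POX00715 had 912, 281 and 539 FPKM with the Avicel label, against 1925, 2244 and 1756 FPKM with the wheat bran label. POX02055 had 682, 294 and 326 FPKM, against 1541, 1775 and 1333 FPKM. Without F, POX00715 was 4.82-fold lower, against 3.42-fold with it, POX02055 was 5.002-fold, against 3.57-fold, and POX02605 was 4.11-fold, against 3.25-fold. Among higher members, the fold of POX08485 without F was 3.73, against 4.49 with it, and that of POX08819 was 3.502, against 2.93.

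In a further 5 lower members, replicate T labelled Avicel lay at least 1.5-fold below F and S. They were POX01651, POX02999, POX06595, POX08694 and POX08696. POX06595 had 566, 559 and 287 FPKM with the Avicel label, against 2599.6, 2592 and 2175 FPKM with the wheat bran label. Replicate S labelled Avicel lay as far above the others in POX02999 and POX05482, and as far below them in POX00715 and POX06307.

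**Figure D4:**
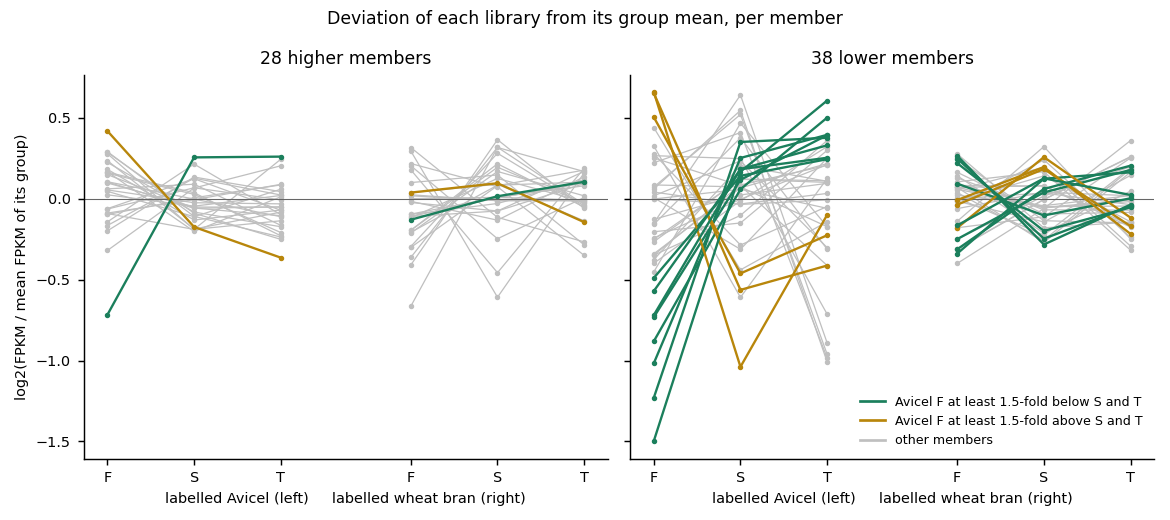
Deviation of each library from the mean of its group, as log2(FPKM / group mean), for the 28 higher members (left panel) and the 38 lower members (right panel), libraries labelled Avicel left of those labelled wheat bran. Thin lines join the values of 1 gene and imply no order. Coloured lines mark genes in which Avicel replicate F lay at least 1.5-fold below (green) or above (gold) S and T, 8 and 3 of the lower members and 1 and 1 of the higher ones.

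Counted by the Avicel library nearest to the wheat bran mean, the lower members divided into 10 for F, 11 for S and 17 for T, and the higher ones into 8, 9 and 11. Of the other genes called at 2-fold or more, the shares for F, S and T were 31.0%, 35.4% and 33.7% among lower genes and 40.1%, 37.5% and 22.5% among higher ones. No Avicel library was therefore nearest to the wheat bran group in most members. When the rule was applied without replicate F labelled Avicel, 58 of the 66 members were still chosen, the fewest for any library left out. The 8 lost were POX00805, POX01105, POX01178, POX02308, POX05436, POX07107, POX07457 and POX08822.

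The members also differed in gene length, here an effective length implied by count and FPKM together. The median was 999 bases for the 28 higher members and 597 bases for the 38 lower ones. It was 537 bases for the 130 genes that reached the level of the rule but differed less than 2-fold, and 1223 bases over 8668 genes. Under 600 bases lay 6 higher members and 19 lower ones of the 28 and 38, against 78 of the 130 and 1732 of the 8668. FPKM divides by length, so a limit on FPKM favours short genes. POX07107, at 174 bases, was the shortest member, and POX04189, at 2357 bases, was the longest. When each library's trend with gene length was removed, 64 of the 66 had a fitted difference of 2-fold or more.

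The neighbours counted here, with ID numbers next to a member, are genes that the rule did not keep. Its level and ratio were applied to them too, and runs of neighbouring changed genes were among the numbers it removed. Of 46 tested neighbours of higher members that were not members themselves, 8 (17.4%) were called at least 2-fold higher, against 7.03% of all tested genes (edgeR, adjusted p under 0.05). Of these 8, 3 were among the removed numbers and 5 were not. The removed genes POX06147 and POX08484 had met the level and the ratio of the rule. None of the 46 was called at least 2-fold lower. Of 64 tested neighbours of lower members, 14 (21.9%) were called at least 2-fold lower, against 9.41% of all tested genes, and 2 at least 2-fold higher. The IDs were not placed on a genome here, so this describes their order only. It is a count over neighbours with no test of its own.

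Next to higher members, 4 genes were at least 4-fold higher, of which 3 were among the removed numbers. POX04034, beside POX04035, averaged 589 ± 146 FPKM with the Avicel label and 79.1 ± 17.3 FPKM with the wheat bran label (SD, n = 3 each; edgeR adjusted p = 4.02e-05). The removed gene POX08484, beside POX08485, averaged 4703 ± 1437 and 826 ± 96.2 FPKM (SD, n = 3 each), levels close to those of its neighbour. The removed genes POX06147 and POX07535, beside POX06146 and POX07534, were 6.997-fold and 8.92-fold higher by the fit, while these 2 members were 2.16-fold and 2.14-fold higher by their mean FPKM.

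Next to lower members, 6 genes were at least 4-fold lower, with means of 4.11 to 195 FPKM in the wheat bran group. POX05482 lay between POX05481 and POX05483, which had 3.59 ± 2.28 and 3.15 ± 0.554 FPKM in the Avicel group, against 26.9 ± 7.22 and 39.9 ± 3.27 FPKM in the wheat bran group (SD, n = 3 each; edgeR adjusted p = 0.00101 and 1.8e-06). POX08695, between the members POX08694 and POX08696, had 1.2 ± 0.05 and 11.6 ± 4.17 FPKM (SD, n = 3 each; edgeR adjusted p = 5.43e-05). All 3 of these genes were lower, and POX08695 lay far below POX08694 and POX08696, which averaged 1221 and 1054 FPKM in the wheat bran group. POX07420, beside POX07419, was 7.53-fold lower, POX00714, beside POX00715, 7.27-fold, and POX04463, beside POX04462, 8.30-fold by the fit.

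**Figure D5:**
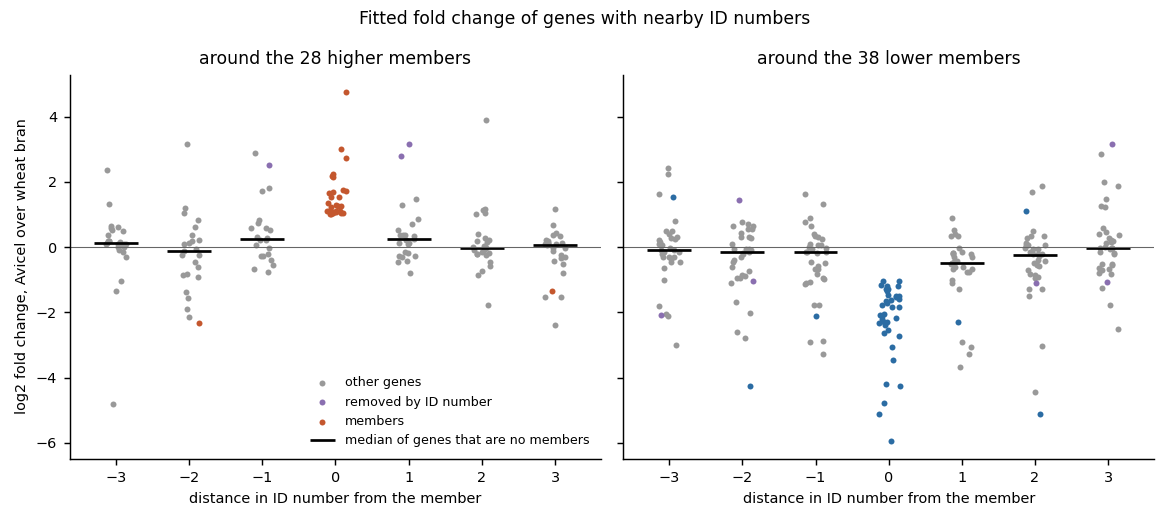
Fitted log2 fold change, Avicel over wheat bran (vertical axis), of tested genes at distances of -3 to 3 in ID number from each of the 28 higher members (left) and 38 lower members (right); each dot is a gene and black bars are medians over genes that are not members. At a distance of 1 the medians were 0.26 and 0.24 around higher members and -0.16 and -0.47 around lower ones. At a distance of 2 they were -0.13 and -0.014 around higher members and -0.16 and -0.25 around lower ones. At a distance of 3 they lay between -0.09 and 0.12.

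Members of opposite direction could also lie close together in the numbering. POX07532, lower, and POX07534, higher, were 2 numbers apart. POX08819, higher, and POX08822, lower, were 3 apart, and in both of these genes replicate F labelled Avicel was far below S and T. POX01178 and POX01182, both lower, were 4 apart.

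The limits of the rule fell within a continuous range. Just inside the ratio were POX05436 at 2.01-fold and POX02308 at 2.01-fold, and just outside it POX08677 at 1.98-fold and POX02787 at 1.96-fold. Just inside the level were POX03060 and POX08696, at 1002 and 1054 FPKM in the wheat bran group. Just outside it were POX01189 and POX03085, at 960.4 and 949.8 FPKM in the Avicel group.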

How the data were processed

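RNA of 6 mycelium libraries was sequenced. The submitters' processing notes list DESeq2, RSEM 1.2.12, Bowtie2 2.1.0 and BWA 0.7.10-r789 but not what each did. Genome build, annotation and strand setting were not given in the sources used here, so overlapping and antisense genes may be mixed. Per the file headers, the deposited tables hold an expected count (estimated, not normalized) and an FPKM value scaled by the authors. TPM, deposited for 1 library, was not used. Total FPKM was 948844 to 955184 in the Avicel group and 1059920 to 1076858 in the wheat bran group.

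Libraries were grouped by their titles. Members follow the stated FPKM rule. Expected counts were rounded and fitted in R 4.3.3 by edgeR 4.0.16 (TMM, filterByExpr, two-sided quasi-likelihood F-test, p adjusted by Benjamini-Hochberg over all tested genes, threshold 0.05), checked on simulated counts. The SE of a log2 fold change came from its F statistic. CPM is TMM-normalised, except that shares use raw totals. Effective length is the median over libraries with an FPKM above 2. Counting error is small at these depths and excludes differences between cultures. Fuller values are given for the 8 members per direction with the highest level and the 3 with the largest ratio; neighbours are named at 4-fold or more, and genes in the passages on spread were chosen after their values were seen. Alternatives used DESeq2 1.42.0 and limma 3.58.1. Members, rules and tests were chosen with earlier results of these data known.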

Additional observations from a re-analysis of the deposited data

How the results depend on the processing

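The alternatives were other scalings, filters, pseudocounts and tools, a correction for gene length, a replicate block and each library left out in turn. All 66 members kept their direction in all 13 alternative fits, and 856 of 858 fitted values kept their call. Since the members were chosen for this contrast in the same libraries, these counts are largely fixed by the rule and nothing is read from them. The other 2 values were those of POX08822, at a log2 fold change of -1.29 and -1.25 without replicates S and T labelled wheat bran, against -1.35 with all libraries. With each library left out, 63 to 69 genes met the rule (26 to 30 higher, 35 to 40 lower), and 65 or 66 members were called. The count of all calls was 3911 to 4997 (591 to 653 at least 2-fold higher, 776 to 836 lower). A level of 500 FPKM gave 113 genes, 48 higher and 65 lower, and 2000 FPKM gave 32, 16 and 16. A ratio of 1.5 gave 114 genes, 74 of them lower, and a ratio of 3 gave 36, 10 of them higher; fewer or more genes follow from these limits by construction. In CPM the sums were 2.90-fold apart for higher members and 4.85-fold for lower ones. Without the 4 genes whose counts were not whole, POX01764 among them, the lower sums were 3.74-fold apart; with each library left out they were 5.57 to 5.75, and 2.61 to 2.74 for higher members. Within 1 or 2 ID numbers more genes are counted. Of 95 tested genes near higher members, 16 (16.8%) were called in the same direction at 2-fold or more, and 5 (5.26%) in the opposite one. Near lower members it was 24 (18.6%) and 5 (3.88%) of 129. Over all tested genes, 7.03% were called at least 2-fold higher and 9.41% at least 2-fold lower. Among genes 1 number away, 8 near higher members and 12 to 15 near lower ones were called in the same direction with each library left out. With the letter as a replicate block, all 66 members and 4602 genes were called. Between the groups, deviations from the group means correlated at 0.19 for the F libraries, -0.10 for S and 0.23 for T, so the letters were not taken to pair the libraries; the highest value between different letters was 0.20.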
